A study of Sus scrofa with 16 samples.

Results

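The genes described here build the contacts and the keratin skeleton of epithelial cells: claudins, occludin and their scaffold proteins of the tight junction, cadherin and catenins of the adherens junction, desmosomal proteins, the adhesion molecule EPCAM and the keratins of simple epithelia. They were chosen as a named list of 31 genes. Probe sets annotated with 1 of these symbols alone were found for 15 of them, and each gene is given by its brightest one on average, unless another is named. Of these 15 genes, 10 passed the filter on dim values (log2 above 5 on at least 4 arrays) and were tested, among 4684 tested genes of the whole array.

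Tight junctions seal the space between neighbouring epithelial cells, and the mix of claudins in them sets which ions and molecules can pass. Adherens junctions and desmosomes below them hold the cells together, E-cadherin through catenins to actin and the desmosomal cadherins through desmoplakin to keratin filaments. In the gut these structures form the physical part of the barrier against luminal bacteria, and KRT8, KRT18, KRT19 and KRT20 are the filament proteins of its simple epithelium.

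Preterm piglets of a Landrace x Large white x Duroc cross were born by caesarean section on gestation day 105 to 2 sows, and tissue was taken on day 5, after 3 days of parenteral nutrition with minimal enteral feeding and 2 days of enteral formula. Piglets treated with broad-spectrum antibiotics (Ampicillin, Gentamycin and Metronidazol, by mouth and into muscle, 2 times daily from birth) were compared with controls that received saline, called untreated in the titles, from arms of 11 and 13 piglets balanced for birth weight and sex within litters. Biotin-labelled RNA of small intestinal tissue was hybridised to a porcine Affymetrix array in 4 groups of 4 arrays: antibiotics distal, control distal, antibiotics proximal and control proximal. By the number in the sample titles, read as the piglet's, 9 piglets were measured, 7 of them in both segments, and litter, sex and lesion score per array are not used here.

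The share of probe sets above the filter level ran from 45.1% to 46.5% over the arrays. FABP6, the ileal bile acid-binding protein, had log2 values of 7.97 to 10.64 in antibiotics distal and 6.64 to 11.03 in control distal tissue, against 2.28 to 2.33 in antibiotics proximal and 2.32 to 7.40 in control proximal tissue. The segment labels thus fitted its groups except for overlap through 1 high control proximal array. Villin (VIL1), of the enterocyte brush border, lay between 12.37 and 13.44 on all 16 arrays, so this epithelial marker was bright in every sample. In such bulk samples, fewer epithelial cells and less RNA per epithelial cell cannot be told apart, and with 4 arrays a group the precision is set by that number. Piglets of a group can also differ in litter and sex, which were not modelled. The p-values measure the spread between these arrays, estimated for each probe set over all 4 groups together. An SE in distal tissue thus also holds the spread of the proximal arrays, and the reverse. The main fit did not link the 2 segments of a piglet.

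None of the 10 tested junction and keratin genes passed the test across the array for antibiotics against control in the distal intestine (limma, adjusted p from 0.28 to 0.998), while 2.12% of all tested probe sets did. EPCAM and CLDN7, which encode proteins known to bind each other in the lateral membrane, were the 2 members with an unadjusted p under 0.05, a level reached by 15.8% of all tested probe sets. They were also the 2 members whose treated arrays all lay below all control arrays, and 6.31% of all tested probe sets were separated in that direction. No member was separated the other way, against 6.4% of all tested probe sets. In total 7 members had lower and 3 higher means with antibiotics, with a median difference of -0.05 on the log2 scale, against 0.00 over all tested probe sets, 49.6% of which had lower means.

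EPCAM, an adhesion molecule of epithelial cells whose loss causes congenital tufting enteropathy in humans, had log2 values of 13.34, 13.59, 13.87 and 13.98 in antibiotics distal tissue, against 14.14, 14.11, 14.49 and 14.66 in control distal tissue. The highest treated array lay just under the lowest control array, so the groups did not overlap. The difference was -0.66 (SE 0.29, 95% interval -1.28 to -0.04), a 1.58-fold lower mean level that did not pass over all probe sets (adjusted p = 0.28). With array quality weights the difference was -0.78 and passed (adjusted p = 0.0251), in a fit that called 14.4% of all probe sets. In proximal tissue EPCAM had values of 14.66, 13.28, 14.12 and 14.23 with antibiotics, against 14.51, 14.05, 14.46 and 15.08 in controls. These groups overlapped, with a difference of -0.45 (95% interval -1.07 to 0.17).

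CLDN7, a claudin found along the lateral membrane as well as in the junction, had values of 12.64, 12.53, 12.17 and 12.62 in antibiotics distal tissue and 12.74, 12.79, 13.15 and 13.48 in control distal tissue. The groups were again apart, by a margin smaller than the SD within either group. The difference was -0.55 (SE 0.26, 95% interval -1.10 to -0.00, adjusted p = 0.312). Proximal arrays held 12.78, 12.44, 12.54 and 12.19 with antibiotics and 13.15, 12.54, 12.40 and 13.43 in controls. There the groups overlapped and the difference was -0.39 (95% interval -0.94 to 0.15). On 1 mean per piglet over both segments, CLDN7 was lower in all 3 treated than in all 4 control piglets (-0.45, SE 0.23, adjusted p = 0.386), a separation in that direction shown by 8.28% of all tested probe sets. The margin was very small: the mean of treated piglet 86 (12.53 distal, 12.78 proximal) lay just under that of control piglet 88 (12.79 distal, 12.54 proximal).

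CLDN4, a claudin that restricts the passage of sodium in cultured epithelia, had values of 8.05, 6.89, 7.35 and 8.70 in antibiotics distal tissue and 8.75, 7.79, 8.06 and 9.73 in control distal tissue. The treated mean was the lower, but the groups overlapped. Its difference of -0.83 was the most negative of the members in distal tissue (SE 0.46, 95% interval -1.80 to 0.14, adjusted p = 0.407). With array quality weights it was -1.32 (adjusted p = 0.0441), in the same fit as for EPCAM, with its larger share of all probe sets called. That fit gave antibiotics distal array 86, with the lowest CLDN4 value of all arrays, the largest weight (4.01). Proximal values were 8.63, 8.27, 8.43 and 7.88 with antibiotics and 8.97, 7.63, 8.35 and 9.13 in controls, a difference of -0.22 (95% interval -1.19 to 0.75). CLDN4 and CLDN3 are direct neighbours in the pig genome (RefSeq, Sscrofa11.1), but the probe set for CLDN3 was dim, above the filter level on 1 of 16 arrays.

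In the same distal arrays, lists of markers of other cells were set beside these genes. The 4 measured of 7 goblet cell markers averaged 11.80 to 12.25 with antibiotics and 12.35 to 12.76 in controls (mean log2 value per array), without overlap. Of these 4 markers, 3 had a lower and 1 a higher mean with antibiotics. None passed (limma, smallest adjusted p = 0.153), against 2.12% of all tested probe sets. The 5 measured of 9 macrophage markers averaged 5.62 to 6.59 with antibiotics and 8.25 to 8.62 in controls. Of these 5 macrophage markers, 5 had lower means and 2 passed (limma, smallest adjusted p = 0.0056), against 2.12% of all tested probe sets. Whether those that passed were above the filter level on the treated arrays is not given here. The 2 measured of 8 neutrophil markers averaged 3.06 to 3.33 with antibiotics and 5.71 to 8.31 in controls. These 2 markers averaged under the filter level of 5 on all treated distal arrays and passed the filter through other arrays. Their gap thus follows in part from how they came to be measured, and is given as a description. The 7 measured of 10 enterocyte markers overlapped, at 13.53 to 13.78 with antibiotics and 13.50 to 14.54 in controls. Endothelial markers overlapped too (6 of 10 measured), at 6.62 to 7.35 with antibiotics and 7.01 to 7.77 in controls, as did fibroblast markers (3 of 7 measured), at 11.81 to 12.22 with antibiotics and 11.82 to 12.64 in controls. S100A8, S100A12 and ITGAM of the neutrophil list and CD14 of the macrophage list were dim. The part of these markers in the values of EPCAM, CLDN7 and CLDN4 was not tested.

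**Figure D1:**
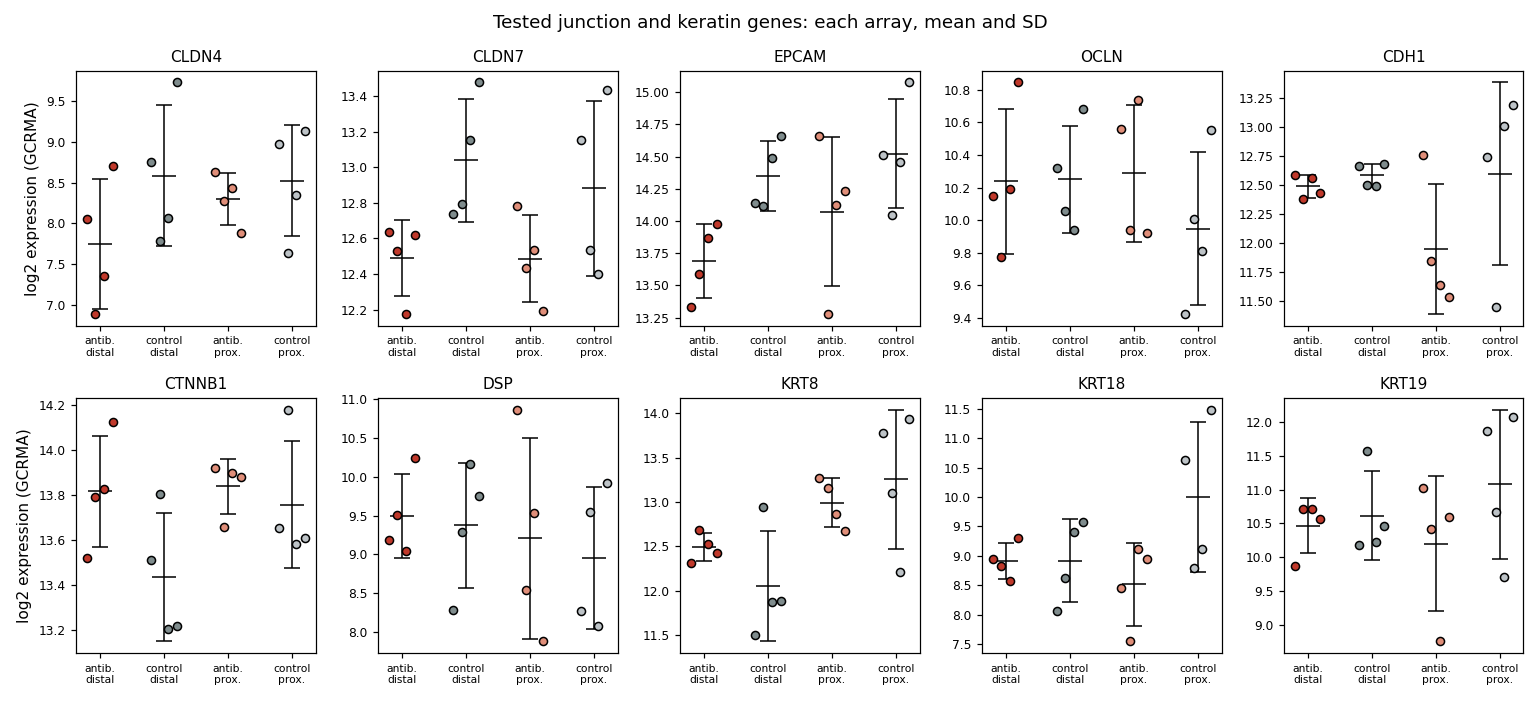
Log2 expression (vertical axis, GCRMA values, a separate scale per gene) of the 10 tested genes on each array (points), with group means and SD (bars), for antibiotics distal, control distal, antibiotics proximal and control proximal tissue (4 arrays each). The treated distal arrays of EPCAM and CLDN7 all lie below the control distal arrays, while the groups overlap for the other 8 genes.

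OCLN, the tight junction protein occludin, had nearly equal means in distal tissue. Its arrays held 10.15, 9.77, 10.19 and 10.85 with antibiotics and 10.32, 10.05, 9.94 and 10.68 in controls. The difference was -0.01 with a 95% interval of -0.64 to 0.62, which allows up to 1.56-fold lower or 1.54-fold higher levels. In proximal tissue the values were 10.56, 9.94, 10.74 and 9.92 with antibiotics and 9.42, 10.01, 9.81 and 10.55 in controls (difference 0.34, adjusted p = 0.692). A dimmer OCLN probe set varied more, with a proximal mean that was higher by 1.25 with antibiotics (SE 0.72, adjusted p = 0.508) and a distal one that was lower (-0.89, SE 0.72, adjusted p = 0.609). On that probe set the treated and control arrays overlapped in both segments, and the 2 probe sets thus gave differences of unlike size. With array quality weights the dimmer one passed for distal against proximal tissue in treated piglets (-2.23, adjusted p = 0.00969). The share of all probe sets that passed in that weighted comparison is not given here. A further OCLN probe set lay near the floor of the values.

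CDH1, E-cadherin, the calcium-dependent adhesion protein of epithelial cells, had tightly grouped distal values. They were 12.59, 12.38, 12.56 and 12.43 with antibiotics and 12.66, 12.50, 12.49 and 12.68 in controls. The groups overlapped, and the difference was -0.09 (SE 0.34, adjusted p = 0.932). Proximal values were wider apart, at 12.76, 11.85, 11.64 and 11.53 with antibiotics and 12.74, 11.44, 13.01 and 13.19 in controls. In that segment 3 of the 4 treated arrays lay below 3 of the 4 control arrays, but control array 88 was the lowest of all 8. The difference was -0.65 (SE 0.34, 95% interval -1.37 to 0.06, adjusted p = 0.438), and without control array 88 it was -1.04 and passed (adjusted p = 0.0377).

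CTNNB1, beta-catenin, links E-cadherin to actin through alpha-catenin and is also the transcriptional co-activator of Wnt signalling. At its brightest probe set it had values of 13.52, 13.79, 13.83 and 14.12 in antibiotics distal tissue and 13.51, 13.80, 13.20 and 13.22 in control distal tissue. The treated mean was the higher by 0.38, with overlapping groups (SE 0.21, adjusted p = 0.408). In proximal tissue the values were 13.92, 13.66, 13.90 and 13.88 with antibiotics and 13.65, 14.18, 13.58 and 13.61 in controls, a difference of 0.08. CTNNB1 had 5 probe sets that passed the filter, more than any other member, and they did not give 1 pattern. The second brightest was lower with antibiotics by the mean in both segments (-0.26 and -0.35), with 4 of 5 higher and 1 lower in distal tissue.

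The CTNNB1 probe set in the middle by mean level was the 1 of 15 tested member probe sets past the threshold in any comparison under the settings used throughout. It passed between segments, where 5.25% of all tested probe sets passed in antibiotics and 5.52% as a mean of both treatments. A count of 1 is thus near that background. This CTNNB1 probe set had values of 10.63, 10.47, 10.48 and 10.52 in antibiotics distal tissue, against 9.77, 9.19, 9.14 and 10.08 in antibiotics proximal tissue. In controls it had 10.15, 10.15, 9.92 and 9.78 in distal tissue, against 9.77, 9.53, 9.89 and 9.94 in proximal tissue. All treated distal arrays thus lay above all other arrays. Of all tested probe sets, 7.69% had treated distal above treated proximal arrays, and 6.4% had treated distal above control distal arrays. The share with treated distal arrays above all others was not computed. Distal tissue was higher than proximal tissue by 0.98 with antibiotics (SE 0.22, adjusted p = 0.0148) and by 0.60 as a mean of both treatments (SE 0.15, adjusted p = 0.0326), and in controls the difference was 0.22 (adjusted p = 0.933). The difference between these segment effects was 0.76 and did not pass (SE 0.31, adjusted p = 0.643). Antibiotics distal tissue was 0.52 above control distal tissue (adjusted p = 0.251), and with array quality weights 0.54 above it, which passed (adjusted p = 0.0431). That was the weighted fit described for EPCAM, which called a larger share of all probe sets. With 1 array left out, the mean over both treatments did not pass in 10 of 16 fits: without antibiotics distal arrays 85, 86, 87 or 95, control distal arrays 83 or 88, antibiotics proximal arrays 87 or 95 and control proximal arrays 83 or 88 (adjusted p up to 0.0751). It did not pass either with the 5' minus 3' control signal, a measure of RNA integrity, as a covariate (0.59, adjusted p = 0.0583) or with the piglet as a fixed effect (0.67, adjusted p = 0.0586). That signal averaged -3.75 ± 0.62 in antibiotics distal and -3.49 ± 0.32 in control distal tissue, against -3.01 ± 0.40 in antibiotics proximal and -3.33 ± 0.79 in control proximal tissue (log2, SD, n = 4 each). Over all alternatives kept at a threshold of 0.05, the mean over both treatments did not pass in 15 of 29 (limma, adjusted p up to 0.121). In antibiotics alone the CTNNB1 difference did not pass in 3 of 30, among them without distal array 85 or proximal array 95 (adjusted p = 0.051 and 0.0633). At the dimmest CTNNB1 probe set distal tissue was higher by 0.84 (SE 0.29, adjusted p = 0.114) and in 7 of 7 piglets, and with the piglet as a fixed effect it was higher by 0.93 and passed (adjusted p = 0.0458). The share of all probe sets higher in 7 of 7 piglets was not computed. The other 3 CTNNB1 probe sets, the brightest included, had segment differences between -0.17 and 0.02.

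**Figure D2:**
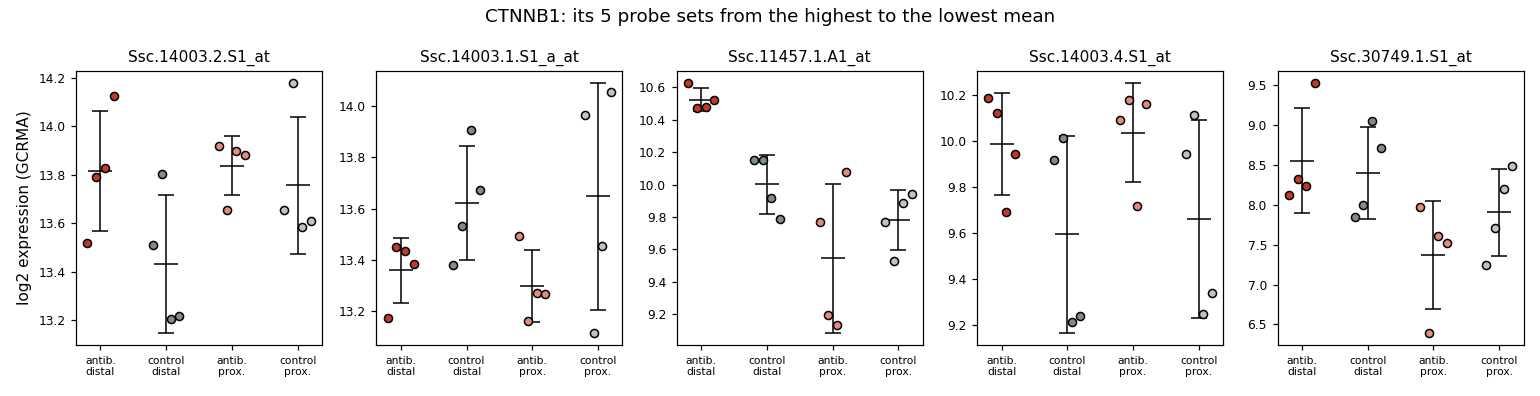
Log2 expression (vertical axis, GCRMA values, a separate scale per panel) of the 5 CTNNB1 probe sets, ordered from the highest to the lowest mean, on each array (points) with group means and SD (bars). The middle panel has its 4 treated distal arrays between 10.47 and 10.63, above all other arrays, which the brightest probe set does not show.

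DSP, desmoplakin, which ties desmosomes to keratin filaments, was among the most variable members. Distal values were 9.18, 9.51, 9.04 and 10.25 with antibiotics and 8.28, 9.29, 10.17 and 9.75 in controls. Proximal values were 10.87, 8.54, 9.53 and 7.88 with antibiotics and 8.27, 9.55, 8.08 and 9.92 in controls. The groups overlapped in both segments. Differences were 0.12 in distal and 0.25 in proximal tissue (SE 0.60 each), with 95% intervals that reach 2.21-fold lower and 2.62-fold higher in distal tissue.

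Among the keratins, KRT18, the acidic partner of keratin 8, had the most negative difference of all members in proximal tissue. Its proximal values were 8.45, 7.54, 9.12 and 8.94 with antibiotics and 10.64, 8.79, 9.11 and 11.49 in controls. Control arrays 83 and 92 stood well above the other 6, which overlapped. The difference was -1.49 (SE 0.53, 95% interval -2.62 to -0.37), and it was the 1 member of 10 with an unadjusted p under 0.05 there, a level that 12.9% of all tested probe sets reached (adjusted p = 0.258). Without control array 92 the adjusted p was 0.65, and without control array 88 it was -1.90 (adjusted p = 0.0505). In distal tissue KRT18 had 8.94, 8.82, 8.57 and 9.31 with antibiotics and 8.05, 8.62, 9.40 and 9.57 in controls, with a difference of -0.00 (95% interval -1.13 to 1.12). The antibiotic effects in distal and proximal tissue differed by 1.49 (SE 0.75, adjusted p = 0.771).

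KRT8, which pairs with KRT18 in the filament and whose gene is its direct neighbour, had treated and control arrays that overlapped in both segments. Proximal values were 13.28, 13.16, 12.87 and 12.67 with antibiotics and 13.78, 13.10, 12.21 and 13.94 in controls (difference -0.26, adjusted p = 0.812). Distal values were 12.32, 12.69, 12.53 and 12.42 with antibiotics and 11.50, 12.95, 11.87 and 11.89 in controls (difference 0.44, adjusted p = 0.61). The treated arrays stood closer together than the control arrays, with an SD of 0.16 against 0.62 in distal and 0.27 against 0.79 in proximal tissue.

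KRT19, a small keratin without a tail domain, had distal values of 9.87, 10.72, 10.72 and 10.57 with antibiotics and 10.18, 11.58, 10.22 and 10.47 in controls. Proximal values were 11.02, 10.43, 8.75 and 10.60 with antibiotics and 11.87, 10.67, 9.70 and 12.07 in controls. The groups overlapped in both segments. The differences were -0.14 (adjusted p = 0.935) and -0.88 (SE 0.54, adjusted p = 0.536).

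In proximal tissue as a whole, 0 of the 10 members passed (limma, adjusted p from 0.258 to 0.912), against 0.147% of all tested probe sets. Again 7 members had lower means with antibiotics, with a median difference of -0.33, where 56.8% of all tested probe sets had lower means and their median was -0.07. None of the 10 had proximal groups that were apart, as 1.74% of all probe sets were in the lower and 1.31% in the higher direction. No member passed the test of a difference in antibiotic effect between segments (0 of 10 by limma, against 0.191% of all probe sets, and 0 of 10 at an unadjusted p under 0.05, against 6.62%). Over the 3 treated and 4 control piglets with both segments, fitted on 1 mean per piglet, 0 of 10 passed (adjusted p from 0.34 to 0.792) against 0.347% of all probe sets, and 0 of 10 had an unadjusted p under 0.05, against 16.1% of all probe sets. In the proximal arrays the goblet cell markers averaged 11.69 to 11.97 with antibiotics and 12.004 to 12.73 in controls, without overlap. Of these markers 4 of 4 had lower means and 0 passed (limma, smallest adjusted p = 0.183). The neutrophil markers averaged 3.17 to 4.52 with antibiotics and 6.10 to 7.91 in controls. They too averaged under the filter level with antibiotics, so their gap follows in part from how they came to be measured. Macrophage markers averaged 6.28 to 8.20 with antibiotics and 8.05 to 8.99 in controls, and enterocyte markers 14.20 to 14.88 with antibiotics and 13.54 to 14.48 in controls. Their part in the proximal values was not tested.

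**Figure D3:**
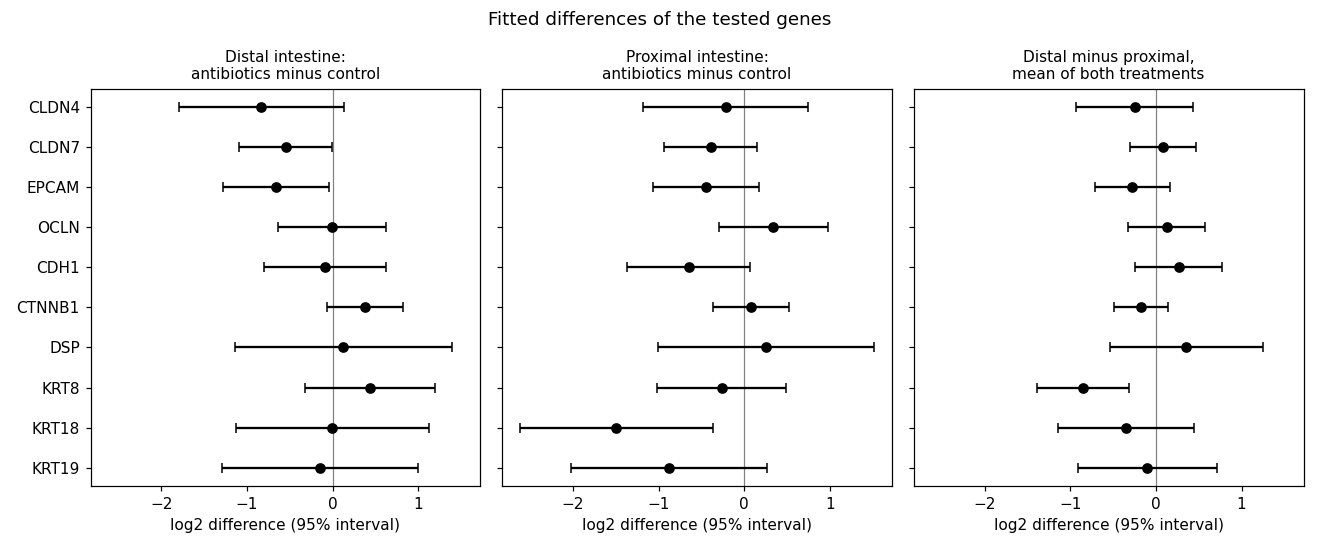
Fitted log2 differences (points) with 95% intervals (bars) of the 10 tested genes for antibiotics minus control in distal tissue, antibiotics minus control in proximal tissue, and distal minus proximal tissue as a mean of both treatments, with a line at 0. The intervals of EPCAM and CLDN7 in distal tissue, KRT18 in proximal tissue and KRT8 between segments leave out 0 before adjustment, and none of these 4 passed after it.

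Between segments, 0 of the 10 members passed as a mean of both treatments (limma, smallest adjusted p = 0.061), where 5.52% of all tested probe sets did. KRT8 had the smallest p. Its mean was 0.86 lower in distal than in proximal tissue (SE 0.25, 95% interval -1.39 to -0.32), which is 1.81-fold, and it was lower in the distal segment of 7 of 7 piglets with both, by 0.16 to 2.28. The median of these 7 differences was -0.59, and the largest were those of control piglets 83 (-2.28) and 92 (-2.05). The share of all probe sets lower in 7 of 7 piglets was not computed. The mean segment difference of KRT8 passed with the piglet as a random block (adjusted p = 0.0363) but not as a fixed effect (adjusted p = 0.118), and it passed without control distal array 88 (adjusted p = 0.0198) and without control proximal array 89 (adjusted p = 0.00948). It was -0.50 with antibiotics (adjusted p = 0.532) and -1.21 in controls (adjusted p = 0.242), and without control proximal array 89 the control difference was -1.55 (adjusted p = 0.0361).

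The other 9 members had segment differences between -0.35 and 0.35 as a mean of both treatments. KRT8 was the 1 of 10 with an unadjusted p under 0.05, a level reached by 17.5% of all tested probe sets. In treated piglets alone 0 of 10 passed (5.25% of all probe sets), with 0 of 10 at an unadjusted p under 0.05 against 17% of all probe sets, and in controls alone 0 of 10 passed (0.364% of all probe sets), with 1 of 10, KRT8, at an unadjusted p under 0.05 against 7.99% of all probe sets. For CLDN7 the distal and proximal means differed by 0.08 (95% interval -0.30 to 0.47), which allows at most 1.38-fold higher or 1.24-fold lower levels in distal tissue.

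Some arrays were high or low within their group for most members. On the arrays of control piglet 92, 9 of the 10 tested genes in proximal and 7 in distal tissue lay above their group means, and 7 did so in both. It was the highest array of its group for 9 members in proximal and 6 in distal tissue. The median deviation of the members from their group means was 0.61 on its proximal and 0.34 on its distal array, against 0.03 and -0.01 over all tested probe sets. Treated piglet 95 also had 7 members above the group mean on both of its arrays, while control piglet 89 had 0. The 5' minus 3' control signal was -3.05 and -3.41 on the proximal and distal arrays of piglet 92, inside the range of -4.36 to -2.40 over all arrays, and -4.25 and -3.53 on those of piglet 89. The part of RNA integrity in these deviations was not tested. Without both arrays of piglet 92, a setting chosen after seeing the data, 0 members passed in any of the 7 comparisons.

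**Figure D4:**
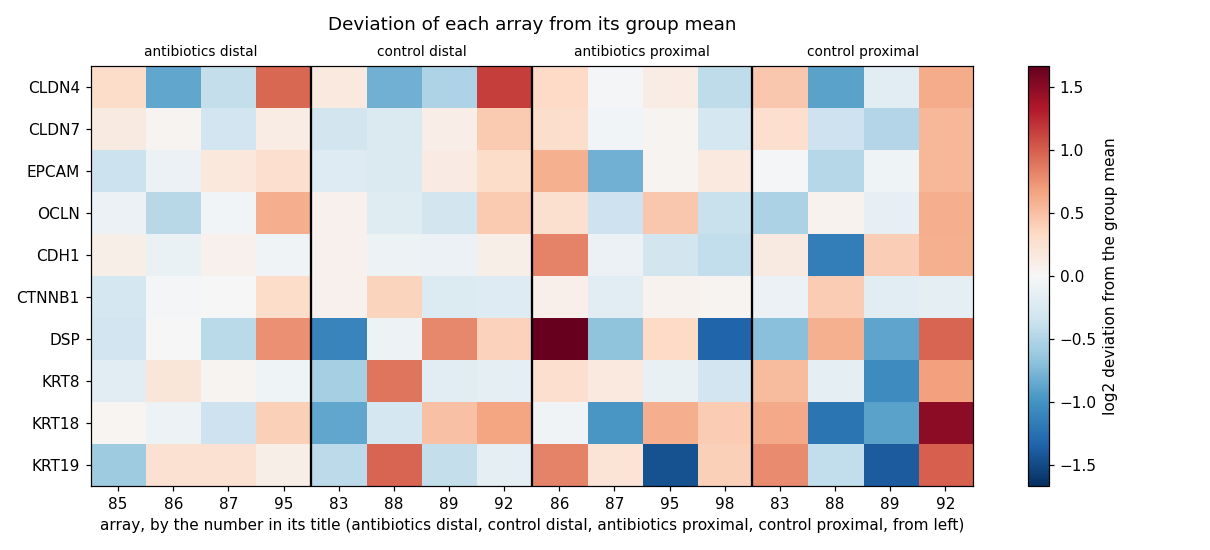
Deviation of each array from the mean of its group (colour, log2 units, red above and blue below) for the 10 tested genes (rows) on the 16 arrays (columns, by the number in the title). The columns of array 92 are mostly red in both control groups, and the column of control proximal array 89 is mostly blue.

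The remaining members could not be tested. CLDN3, CLDN5, the claudin of endothelial cells, CLDN12, TJP1 (ZO-1, the scaffold under tight junctions) and JUP (plakoglobin, of desmosomes and adherens junctions) had only dim probe sets. CLDN3 ranged from 3.10 to 5.09, CLDN5 from 2.92 to 4.10, JUP from 2.15 to 3.51, TJP1 from 2.45 to 2.80 and CLDN12 from 2.14 to 2.42, where the floor of all values was 2.14. CLDN3 lay at 3.10 to 3.23 in antibiotics distal and at 3.67 to 4.50 in control distal tissue, which is a pattern below the filter level and was not tested. A low value on this array can come from a probe set that binds poorly, so these 5 genes are not shown to be absent. Second probe sets of CDH1, DSP and KRT8 lay near the floor on all 16 arrays, while others of the same genes were bright. CLDN1, CLDN2, CLDN8, CLDN15, CLDN18, CLDN23, TJP3, F11R, CGN, MARVELD2, DSG2, DSC2, CTNNA1, PARD3, PARD6B and KRT20 had no probe set annotated here.

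Of 180 further genes of junctions, cytoskeleton and epithelial identity in 7 lists, 51 were measured above the filter. None of the 51 passed (limma) for antibiotics against control in distal tissue, against 2.12% of all tested probe sets, and 7 had an unadjusted p under 0.05, against 15.8%. In proximal tissue 0 of the 51 passed, against 0.147% of all tested probe sets, and 5 had an unadjusted p under 0.05, against 12.9%. Among 14 tight junction and polarity genes 7 had lower and 7 higher distal means with antibiotics (median 0.03). Lower distal means were found for 3 of 5 adherens junction and desmosome genes (median -0.19), 4 of 8 filament and cytolinker genes (median 0.00), 3 of 5 hemidesmosome and basement membrane genes (median -0.01) and 3 of 7 brush border genes (median 0.06). All 3 gap junction genes had lower distal means (median -0.36). Of 9 epithelial transcription factors and surface proteases 7 had lower means (median -0.18), the most negative being that of ELF3, an epithelial ETS factor, at -1.40 (SE 0.50, adjusted p = 0.175).

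Between segments 2 of these 51 genes passed, CDH17 and GATA4, while 5.52% of all tested probe sets did, so the count is no larger than that background. CDH17, the liver-intestine cadherin, was the 1 of 5 further adherens junction and desmosome genes to do so. It had values of 13.89, 13.71, 13.75 and 13.59 in antibiotics distal and 13.59, 13.14, 13.86 and 13.78 in control distal tissue, against 12.95, 12.64, 12.52 and 12.35 in antibiotics proximal and 12.93, 11.87, 13.78 and 13.33 in control proximal tissue. The segments were apart in treated piglets and overlapped in controls. CDH17 was 0.87 higher in distal tissue as a mean of both treatments (SE 0.23, adjusted p = 0.034), but did not pass in 11 of 16 fits with 1 array left out (adjusted p up to 0.0711): only without control distal array 88, antibiotics proximal array 86 or control proximal arrays 88, 89 or 92 did it pass. It also did not pass with the 5' minus 3' control signal as a covariate (0.63, adjusted p = 0.0902) or over the piglets with both segments alone (0.80, adjusted p = 0.107). In treated piglets alone it was 1.12 higher in distal tissue (adjusted p = 0.0546), and that difference passed with the piglet as a random block (adjusted p = 0.0291) but not as a fixed effect (adjusted p = 0.0822).

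GATA4, a transcription factor of proximal intestinal identity, was the 1 of 9 transcription factors and surface proteases counted as passing. It lay at 2.28 to 2.38 in antibiotics distal and 2.29 to 2.80 in control distal tissue, against 3.79 to 6.97 in antibiotics proximal and 4.89 to 6.39 in control proximal tissue. It was dim on all 8 distal arrays and passed the filter through proximal arrays alone, so that its segments differ follows from how it came to be tested, and its values are given as a description. Brush border cytoskeleton genes, which carry the microvilli, had higher distal means for 7 of 7 (median 0.37, against 0.02 over all tested probe sets), with 0 past the threshold, against 5.52% of all tested probe sets, and 3 at an unadjusted p under 0.05, against 17.5%.

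**Figure D5:**
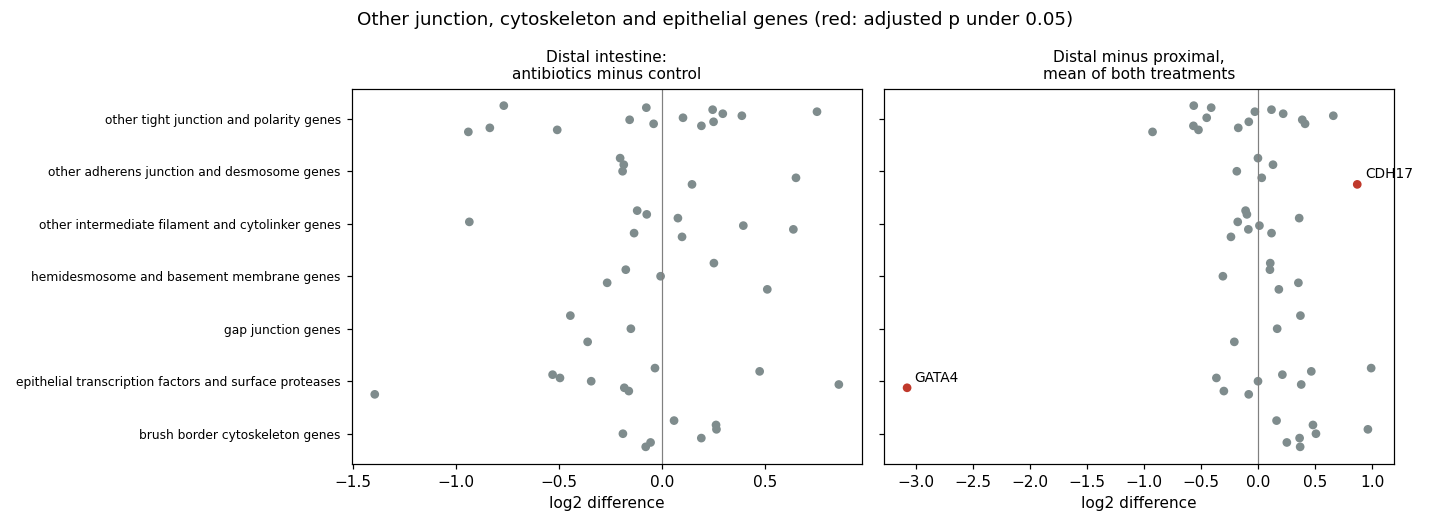
Log2 differences (horizontal axes) of the 51 further genes by list (rows) for antibiotics minus control in distal tissue (left) and distal minus proximal tissue as a mean of both treatments (right), 1 point per gene. Red points with names, CDH17 and GATA4 on the right, passed an adjusted p of 0.05, GATA4 having been admitted through proximal arrays alone, and no gene on the left did.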

How the data were processed

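The deposited table holds 1 log2 value for each probe set on each array, made by the authors with GCRMA. Tools named in the submitters' processing notes are GCOS 1.2, limma and GCRMA, with no order or settings. The floor was 2.14, and 39.7% of values lay under 2.5. The table has 24123 probe sets, of which 124 controls were dropped; the rest carry 1 gene symbol (10069), more than 1 (198) or none (13732), and all 15 members found matched a RefSeq symbol. The 11538 probe sets above 5 on at least 4 arrays were fitted as group means over all 16 arrays with limma 3.58.1 (lmFit, eBayes; R 4.3.3), adjusted by Benjamini-Hochberg over all of them at 0.05. Intervals are of the single difference, without adjustment. The code was tested on simulated data. The members and lists were chosen with earlier results of these data known. Every member with a probe set is described, and list genes past the threshold are named; ELF3 was named after its values were seen.

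The labels do not say that the number in the titles is the piglet's. Residuals of same-numbered proximal and distal arrays correlated at 0.0293 to 0.526, over 0.1 for 5 of 7. Alternative settings covered the filter (none, or a level of 7), quantile normalization, equal medians, eBayes with trend and robust options, an adjusted p of 0.10, array quality weights, genes averaged over their probe sets, subsets of arrays, the piglet as a block (statmod 1.5.0), 5' minus 3' control signal as a covariate, and each array left out. Figures used matplotlib 3.10.9 in Python 3.11.15.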

Additional observations from a re-analysis of the deposited data

Results flagged for a closer look

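Of 60 groups of 4 arrays (15 tested member probe sets in 4 groups), 3 held an array far from the other 3, which is no more than the about 1 in 20 that chance gives. All were of CTNNB1, which had more of these probe sets than any other member. At the brightest probe set antibiotics proximal array 87 had 13.66, against 13.88 to 13.92 on the others, and control proximal array 88 had 14.18, against 13.58 to 13.65. At the dimmest probe set antibiotics distal array 95 had 9.53, against 8.13 to 8.33. No member's antibiotic effect differed between segments past the threshold or ran in opposite directions without overlap.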

How the results depend on the processing

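The count of members past the threshold was 0 in all 7 comparisons. It stayed 0 in all 31 alternatives for the difference of the antibiotic effects, all 32 for distal against proximal in antibiotics and all 26 on piglet means. For antibiotics against control in distal tissue it was 2 with array quality weights (EPCAM and CLDN4) and 0 in the other 30. That weighted fit called a larger share of all probe sets, given with EPCAM, than the 2.12% of the main fit. With those weights 2 dimmer member probe sets also passed, of CTNNB1 in the same comparison and of OCLN between segments in antibiotics. For the mean segment difference it was 1 (KRT8) in 8 of 31: array quality weights, eBayes with trend and robust options, a threshold of 0.10, the replicate block with the piglet as a random effect (adjusted p = 0.0363), without control distal arrays 88 and 83, without the arrays with the 2 lowest 5' minus 3' differences (chosen after seeing the data), and 2 fits with 1 array left out. With 1 array left out, the counts ranged from 0 to 1 for that comparison, for proximal antibiotics against control (CDH1) and for distal against proximal in controls (KRT8), and were 0 in the others. With the piglet as a fixed effect the replicate block gave 0. The cause of these moves was not tested. No value past the threshold reversed. The block changed no other call for the brightest probe sets of the members; for the CTNNB1 probe set in the middle by level the mean segment difference did not pass with the piglet as a fixed effect (0.67, adjusted p = 0.0586), and for the dimmest it then passed (0.93, adjusted p = 0.0458). With the random block CDH17 passed between segments in antibiotics (adjusted p = 0.0291). Of the 51 further genes 1 to 6 passed for the mean segment difference, 0 to 7 for distal against proximal in antibiotics and 0 to 2 in controls. In each antibiotic contrast by segment 0 to 4 passed, on piglet means 0 to 2, and for the difference of the antibiotic effects 0. The share of all probe sets that passed in each of these settings is not given here. These counts are thus not set against that background.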
